A study of Mus musculus with 12 samples.

Results

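Casp1, Casp4, Casp8, Gsdmd, Pycard, Nlrp3, Il18, Ripk3, Mlkl and Zbp1 encode sensors, adaptors, proteases, pore-forming proteins and a cytokine of the inflammasome, pyroptosis and necroptosis pathways. The 10 genes were taken by symbol from a table of 24493 gene symbols. All 10 were among the 13662 genes that reached 1 TPM (a share of a library's transcripts, corrected for transcript length and scaled to the same total in each library) in at least 3 libraries, and all 10 were therefore tested. They were measured by RNA sequencing in mouse pancreatic tumour cells of the name 6649c2, in 4 groups of 3 libraries that carried the genotype labels EgfrKO, Klf5KO, Smad4KO and WT. In all 4 groups the tumours had grown from cells implanted under the skin, tumour cells had been sorted out of them, and the strain label was C57BL/6. Whether a knockout was 1 clone or a pool, how many animals or tumours stood behind a group, the age of the animals and the sorting gate are things the labels do not say. A difference between a knockout label and WT therefore cannot be told apart from a difference between clones.

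Inflammasomes are cytosolic complexes in which a sensor such as NLRP3 and the adaptor ASC, the product of Pycard, bring caspase-1 molecules together so that they cleave and activate one another. Active caspase-1 matures interleukin-1 beta and interleukin-18 and cuts gasdermin D, whose freed part forms pores in the plasma membrane and kills the cell by pyroptosis; mouse caspase-11, the product of Casp4, cuts gasdermin D after binding bacterial lipopolysaccharide. Necroptosis runs through the kinase RIPK3, which phosphorylates the pseudokinase MLKL so that MLKL disrupts the membrane. ZBP1 senses nucleic acids in the Z conformation and can engage RIPK3, and caspase-8 restrains RIPK3-driven death while it drives apoptosis. Several of these genes are known as interferon-inducible in mouse cells.

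The transcript of the targeted gene was lower in 2 of the 3 knockout labels. Egfr averaged 4.29 ± 0.759 TPM in EgfrKO and 13.1 ± 0.850 TPM in WT, and Smad4 averaged 30.7 ± 2.39 TPM in Smad4KO and 75.5 ± 4.45 TPM in WT (SD, n = 3 each). Klf5 averaged 93.8 ± 6.35 TPM in Klf5KO and 112 ± 16.8 TPM in WT, so the gene-level values do not check the label, and the group is called Klf5KO as labelled. The median gene stood 0.14, 0.31 and 0.10 above WT on the log2 scale in EgfrKO, Klf5KO and Smad4KO, so the changes of the 10 genes are given as deposited and after median-of-ratios scaling, which subtracts a shift of 0.14, 0.33 and 0.11. All 3 knockout labels were set against the same 3 WT libraries and share their error. Epithelial markers summed to 7369 to 7873 TPM over 8 genes in EgfrKO, 4598 to 5133 in Klf5KO, 8042 to 9006 in Smad4KO and 5459 to 5930 in WT. These sums were carried by the keratins Krt8, Krt18 and Krt19, each at 714 TPM or more in every library, and of the 7 epithelial markers tested 4, 1 and 7 were called higher and 1, 5 and 0 lower in EgfrKO, Klf5KO and Smad4KO. Krt7 averaged 159, 5.07 and 133 TPM in the knockout labels and 61.6 TPM in WT, and Cldn4 reached at most 1.34 TPM in any library. Epcam was low in EgfrKO and Klf5KO, at 1.30 and 0.539 TPM on average, with 39.5 TPM in Smad4KO and 13.5 TPM in WT. Cdh1 went the other way, at 267, 243 and 351 TPM in EgfrKO, Klf5KO and Smad4KO and 166 TPM in WT. It was called higher in all 3 labels before and after scaling. Muc1 averaged 29.4, 22.7 and 193 TPM in these labels and 38.2 TPM in WT. Macrophage transcripts were also present, and their sum over 10 markers was 1266 to 1365 TPM in EgfrKO and 1076 to 1708 TPM in Klf5KO. The same sum was 820, 186 and 813 TPM in replicates 1, 2 and 3 of Smad4KO and 793, 1489 and 749 TPM in those of WT. Smad4KO replicate 2 and WT replicate 2 thus stood apart from their own groups. Results of the 10 genes are given with and without them wherever a call changed, and marker calls are given with them only. T and NK cell markers summed to 13.1 to 14.5 TPM in EgfrKO, 14.1 to 21.0 in Klf5KO, 9.44 to 13.4 in Smad4KO and 2.89 to 6.94 in WT; neutrophil markers summed to 15.2 to 19.5, 18.4 to 23.1 and 15.6 to 19.2 TPM in these knockout labels in the same order and to 12.7 to 25.4 TPM in WT. Fibroblast markers summed to 116 to 124 TPM in EgfrKO, 288 to 601 in Klf5KO, 46.6 to 74.5 in Smad4KO and 51.6 to 133 in WT. Endothelial markers summed to 6.89 to 9.36 TPM in EgfrKO, 12.2 to 15.4 in Klf5KO, 2.49 to 3.39 in Smad4KO and 2.38 to 3.45 in WT, and general leukocyte markers to 238 to 243, 229 to 362 and 67.8 to 148 TPM in these knockout labels and 141 to 213 TPM in WT. In EgfrKO, Klf5KO and Smad4KO, 5, 5 and 3 of the 8 T and NK cell markers tested were called higher and none lower. Of the 2 endothelial markers, 2, 2 and 0 were higher and none lower. Of the 7 leukocyte markers, 3, 6 and 0 were higher and 1, 0 and 2 lower, and only 1, 1 and 0 were higher after scaling. Of the 5 neutrophil markers, 1, 1 and 1 were higher and 2, 2 and 0 lower. Of the 8 fibroblast markers, 0, 7 and 0 were higher and 1, 0 and 2 lower, and 0, 4 and 0 were higher after scaling. Scaling left the T and NK cell, endothelial and neutrophil counts unchanged, and moved the epithelial markers called lower to 2, 6 and 0. Of all genes, 31.3%, 55.2% and 32.2% were higher and 12%, 11.1% and 17.4% lower. After scaling these were 18.2%, 24.9% and 24.8%, and 22.1%, 27.3% and 25.2%. The part of these cells in the results below was not tested. In bulk RNA, fewer cells of a type and less RNA per cell cannot be told apart.

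Against WT, 5 of the 10 genes were higher in every knockout label: Casp1, Casp4, Gsdmd, Zbp1 and Mlkl. Of all genes tested, 14.2% were higher in each of the 3. After scaling the number was 4, without Gsdmd, where 5.50% of all genes were. Ripk3 alone of the 10 was called in all 3 labels with different signs, a pattern held by 5.02% of genes. In EgfrKO, 7 genes were higher and 1 was lower, where 31.3% of all genes tested were higher and 12% lower; after scaling 6 were higher and 1 lower, where 18.2% and 22.1% of all genes were. In Klf5KO, 6 were higher and 1 was lower, against 55.2% and 11.1% of all genes, so the share of members called higher was close to the background; after scaling 4 were higher and 1 lower, against 24.9% and 27.3%. In Smad4KO, 6 were higher and 1 was lower, against 32.2% and 17.4% of all genes; after scaling 6 were higher and 2 lower, against 24.8% and 25.2%. For Casp1, Casp4, Gsdmd, Zbp1 and Mlkl all libraries of each knockout label lay above all WT libraries, as they did for 40.1%, 57.1% and 38.3% of all genes in EgfrKO, Klf5KO and Smad4KO. The median log2 fold change of the 10 genes was 0.67, 0.34 and 0.71 in EgfrKO, Klf5KO and Smad4KO, beside 0.14, 0.31 and 0.10 over all genes, and 0.54, 0.02 and 0.61 after scaling.

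**Figure D1:**
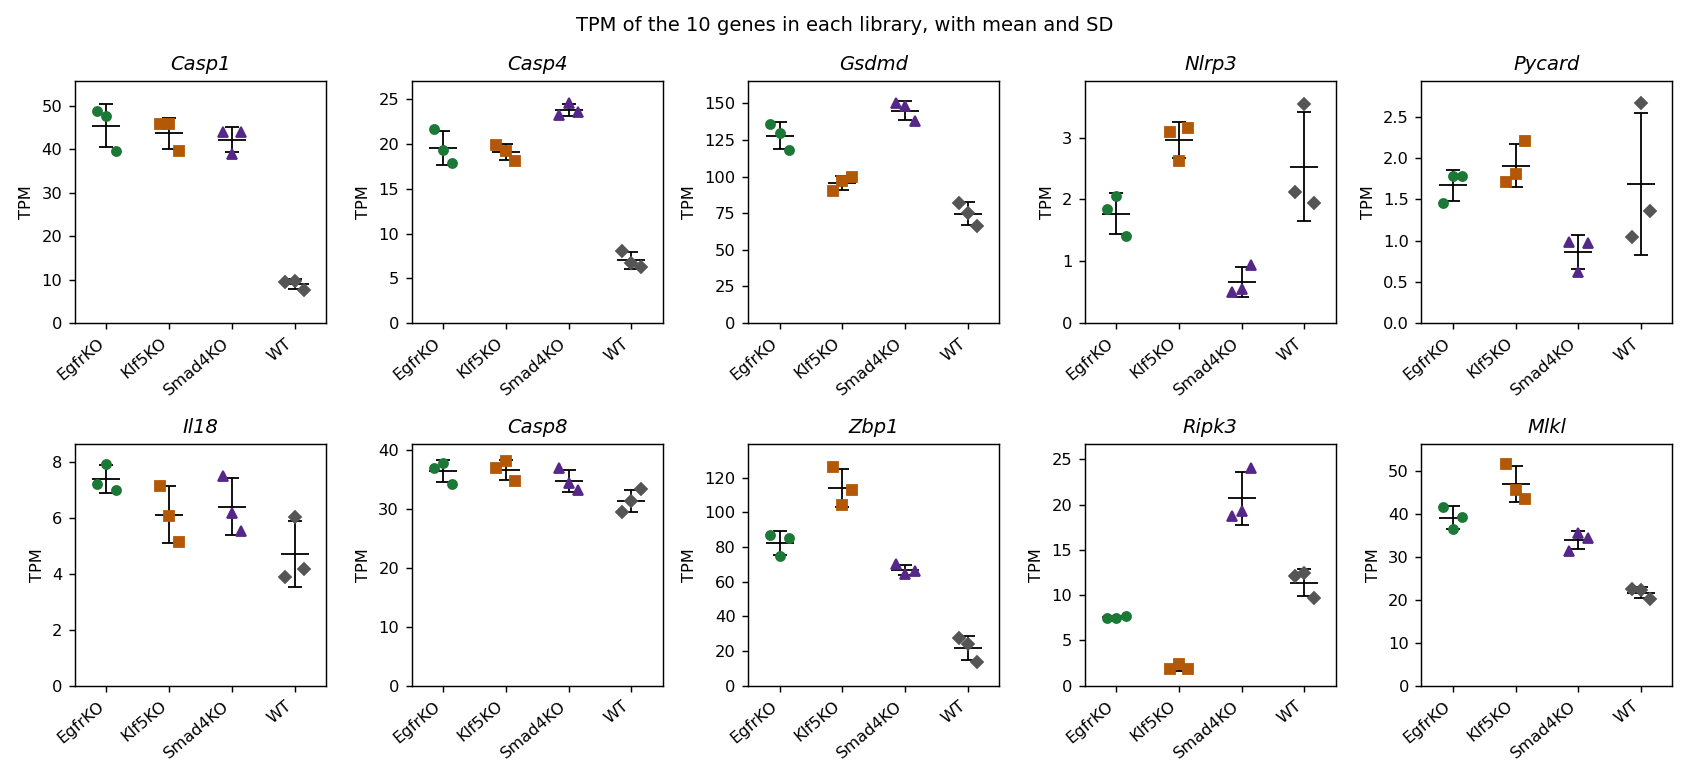
TPM of each of the 10 genes in every library, with EgfrKO, Klf5KO, Smad4KO and WT from left to right in each panel; points are libraries, and the long bar and whiskers are the mean and SD of 3. All 9 knockout libraries lay above all 3 WT libraries for Casp1, Casp4, Gsdmd, Mlkl and Zbp1. For Ripk3, Gsdmd, Mlkl and Zbp1 none of the 4 groups overlapped another. The shares of all genes with either of these patterns were not counted.

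**Figure D2:**
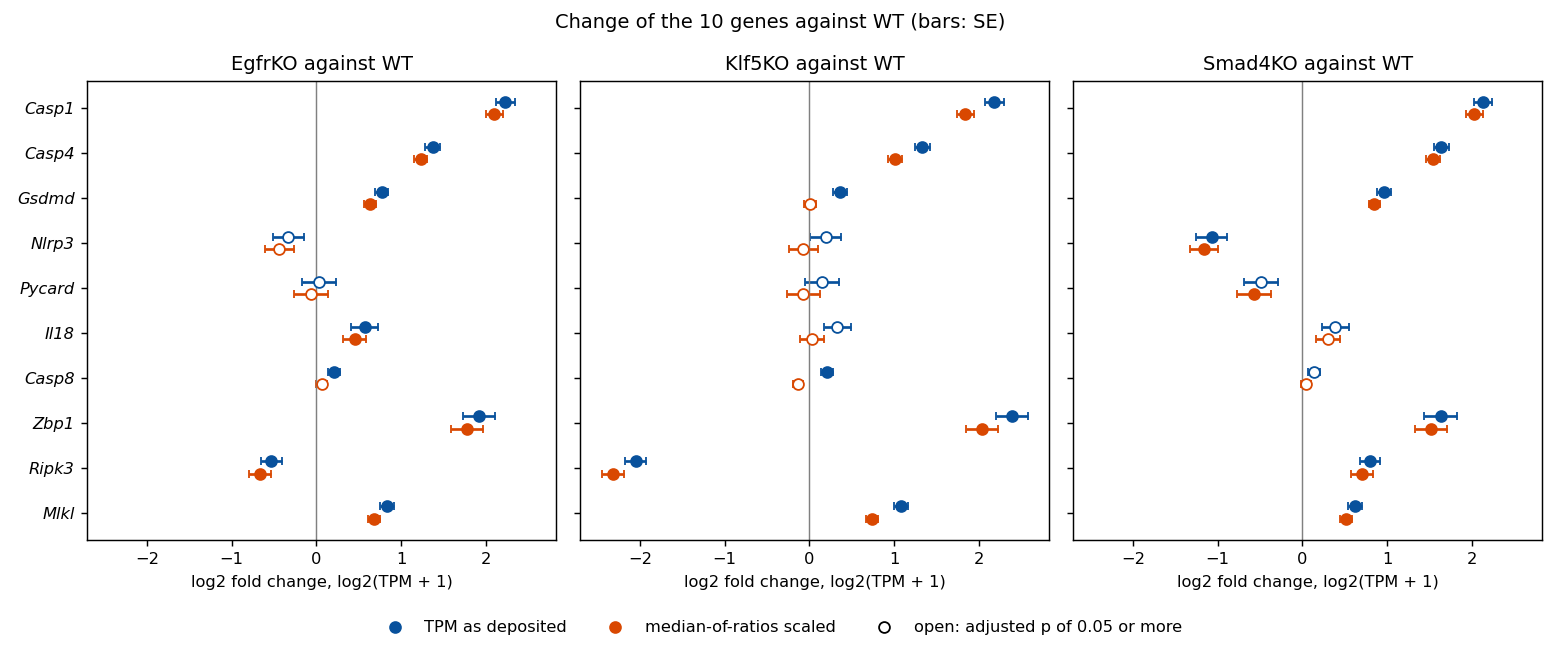
Log2 fold change of each gene against WT on the log2(TPM + 1) scale with its SE, as deposited (blue) and after median-of-ratios scaling (orange), in 1 panel for each knockout label; open points have an adjusted p of 0.05 or more. Casp1, Casp4, Zbp1 and Mlkl stayed above 0 in every panel under both treatments, while the value of Gsdmd in Klf5KO moved to 0.01 after scaling.

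Of the proteases, Casp1, which encodes the effector caspase of the inflammasome, had the largest ratio of means to WT in EgfrKO and Smad4KO among the 10 genes. It lies on chromosome 9 of GRCm38.p6 (5298517 to 5307281, plus strand). Casp1 had 48.9, 47.7 and 39.7 TPM in EgfrKO, 45.7, 45.7 and 39.5 TPM in Klf5KO and 43.9, 38.8 and 44.0 TPM in Smad4KO, against 9.52, 9.63 and 7.55 TPM in WT. All 9 knockout libraries stood far above the 3 WT libraries, and the knockout labels overlapped one another. The means were 5.11, 4.91 and 4.75 times that of WT in EgfrKO, Klf5KO and Smad4KO. The log2 fold changes were 2.23 (SE 0.11, adjusted p = 1.9e-07 in limma with Benjamini-Hochberg adjustment, as for every adjusted p below), 2.18 (SE 0.11, 6.53e-08) and 2.13 (SE 0.11, 4.42e-08), and 2.10, 1.84 and 2.03 after scaling. No call was made for Casp1 between neighbouring knockout labels as deposited (adjusted p = 0.692 for EgfrKO against Klf5KO and 0.725 for Klf5KO against Smad4KO). Among tested genes ranked by TPM, Casp1 stood at percentile 77.1, 72.8 and 75.6 in the knockout labels and 38.5 in WT.

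Casp4, the neighbour of Casp1 on the same strand, begins 1568 bases after its end (chromosome 9, 5308849 to 5336791). It had 21.7, 19.3 and 17.9 TPM in EgfrKO, 19.9, 19.2 and 18.1 TPM in Klf5KO and 23.3, 24.6 and 23.6 TPM in Smad4KO, against 8.02, 6.68 and 6.29 TPM in WT. Every knockout library was above every WT library, and the 3 Smad4KO libraries were above all others. The log2 fold changes were 1.37, 1.33 and 1.64 in EgfrKO, Klf5KO and Smad4KO (SE 0.09 each, adjusted p = 1.16e-06, 5.73e-07 and 9.32e-08), and 1.23, 1.01 and 1.54 after scaling. Casp4 was 0.27 lower in EgfrKO than in Smad4KO on the log2 scale (adjusted p = 0.039), a call that was lost when any one of 5 of its 6 libraries was left out (EgfrKO replicates 2 and 3 and the 3 of Smad4KO, adjusted p of 0.072 to 0.132), without Smad4KO replicate 2 and WT replicate 2 together (adjusted p = 0.122), with no filter on low values (adjusted p = 0.0552) and with the mean of the macrophage markers as a covariate (-0.20, adjusted p = 0.291). It was 0.31 lower in Klf5KO than in Smad4KO (adjusted p = 0.0115), which was not called with that covariate (-0.24, adjusted p = 0.127). The ratio of Casp4 to Casp1 within a library averaged 0.432, 0.438 and 0.567 in EgfrKO, Klf5KO and Smad4KO and 0.790 in WT.

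The promoters of these neighbours are shown because both genes moved together against WT; each is the 250 bases before the annotated start on the gene's own strand, from RefSeq on GRCm38.p6. RefSeq promoters were found for 8 of the 10 genes, all except Gsdmd and Zbp1. Capitals mark matches to the kappaB motif, the binding sequence of NF-kappaB factors.
Casp1, chr9:5298267-5298516, plus strand: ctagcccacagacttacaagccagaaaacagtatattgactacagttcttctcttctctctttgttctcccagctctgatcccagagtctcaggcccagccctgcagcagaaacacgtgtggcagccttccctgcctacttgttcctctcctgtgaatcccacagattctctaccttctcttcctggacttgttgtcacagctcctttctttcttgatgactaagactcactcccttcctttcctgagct
Casp4, chr9:5308599-5308848, plus strand: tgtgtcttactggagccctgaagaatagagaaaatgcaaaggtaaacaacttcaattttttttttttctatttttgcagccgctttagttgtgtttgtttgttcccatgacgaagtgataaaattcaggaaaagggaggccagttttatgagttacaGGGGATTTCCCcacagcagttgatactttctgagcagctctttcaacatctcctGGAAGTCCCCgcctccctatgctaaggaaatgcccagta
Matches to 4 patterns were searched on both strands: the interferon-stimulated response element as GAAA, any 2 bases and GAAA again, the interferon gamma-activated site as TTCNNNGAA, the kappaB motif, and the C-rich box bound by Klf factors as CCNCNCCC. In the Casp4 window shown, the kappaB motif matched at 93 to 83 bases before the start, in overlapping matches on both strands. It also matched at 39 to 30 bases before that start. Casp4 has a second annotated start, with a window at 5308610 to 5308859. There the same matches lie 104 to 94 and 50 to 41 bases before the start. The Casp1 window held none of the 4 patterns. Nlrp3 was the other gene with a kappaB match, in 1 of its windows. Of 32851 mouse starts 7.25% have one in a window of this length, and of 27025 genes 8.23% have one at any start. No promoter of the 8 genes matched the interferon-stimulated response element or the interferon gamma-activated site, which occur in 2.98% and 7.02% of starts and in 3.46% and 8.13% of genes. The only windows of Casp8 (58802252 to 58802501) and Mlkl (111338206 to 111338455) lie inside the bounds of these genes, so their outermost starts were not searched. For Mlkl and Il18, the first 20 bases after the start were not found in a transcript of the GENCODE annotation. These matches describe letters in a window and say nothing of binding.

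Gsdmd, which encodes gasdermin D, was the most abundant of the 10 genes in EgfrKO, Smad4KO and WT (chromosome 15, 75862144 to 75867408, plus strand). It had 136, 130 and 118 TPM in EgfrKO, 90.1, 97.0 and 99.8 TPM in Klf5KO and 150, 148 and 138 TPM in Smad4KO, against 82.0, 75.1 and 66.4 TPM in WT. No knockout library fell into the WT range, but Klf5KO replicate 1 lay close to the highest WT library. The log2 fold changes were 0.77 in EgfrKO (adjusted p = 2.01e-05), 0.36 in Klf5KO (adjusted p = 0.00182) and 0.96 in Smad4KO (adjusted p = 1.72e-06), with an SE of 0.08 each. After scaling they were 0.63, 0.01 and 0.85, and the Klf5KO call was lost (adjusted p = 0.932). Gsdmd was higher in EgfrKO than in Klf5KO by 0.41 (adjusted p = 0.000924) and lower in Klf5KO than in Smad4KO, with a log2 fold change of -0.60 (adjusted p = 4.1e-05).

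Nlrp3 and Pycard, the inflammasome sensor and adaptor among the 10 genes, reached no more than 3.54 TPM in any library, and neither was called higher against WT in any knockout label as deposited or after scaling, as Casp1 and Casp4 were in all 3. Nlrp3 (chromosome 11, 59541569 to 59566955, plus strand) had 1.84, 2.06 and 1.41 TPM in EgfrKO, 3.10, 2.63 and 3.16 TPM in Klf5KO and 0.509, 0.548 and 0.936 TPM in Smad4KO, against 2.12, 3.54 and 1.94 TPM in WT. All 3 Smad4KO libraries lay under every other library, while EgfrKO and Klf5KO overlapped WT. The log2 fold change was -1.07 in Smad4KO (SE 0.18, adjusted p = 0.000416; -1.16 after scaling). It was -0.33 in EgfrKO (adjusted p = 0.156) and 0.19 in Klf5KO (adjusted p = 0.36; -0.07 after scaling), neither called. Nlrp3 was higher in EgfrKO than in Smad4KO by 0.74 (adjusted p = 0.00779) and higher in Klf5KO than in Smad4KO by 1.26 (adjusted p = 7.08e-05). It was lower in EgfrKO than in Klf5KO, with a log2 fold change of -0.52 (adjusted p = 0.0265), which was not called after scaling (adjusted p = 0.0946) or without EgfrKO replicate 3, Klf5KO replicate 1 or Klf5KO replicate 3 (adjusted p = 0.0969, 0.0693 and 0.0733).

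Pycard (chromosome 7, 127991373 to 127993867, minus strand) had 1.46, 1.79 and 1.78 TPM in EgfrKO, 1.71, 1.81 and 2.21 TPM in Klf5KO and 0.988, 0.621 and 0.977 TPM in Smad4KO, against 1.04, 2.67 and 1.36 TPM in WT. The WT libraries spanned both knockout groups with higher values, and the Smad4KO libraries lay just under the lowest of them. The log2 fold change of Smad4KO against WT was -0.49 (SE 0.20, adjusted p = 0.0554) and -0.57 after scaling, where it was called (adjusted p = 0.0366). It was also called without WT replicate 1 (-0.67, adjusted p = 0.0171). In EgfrKO it was 0.03 (adjusted p = 0.903; -0.06 after scaling) and in Klf5KO 0.15 (adjusted p = 0.508; -0.07 after scaling). Without WT replicate 2 the Klf5KO value was 0.40 and was called higher (adjusted p = 0.0415). The ratio of Pycard to Casp1 within a library averaged 0.0373, 0.0443 and 0.0202 in EgfrKO, Klf5KO and Smad4KO and 0.189 ± 0.0844 in WT (SD, n = 3), and no knockout library reached the WT range of 0.110 to 0.278.

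WT replicate 2, with the highest macrophage marker sum in its group, also had the highest Nlrp3, Pycard and Il18 of the 3 WT libraries. Its Casp1 and Ripk3 were the highest too, at 9.63 and 12.4 TPM, close to the 9.52 and 12.1 TPM of WT replicate 1. Smad4KO, the group with the lowest Nlrp3 and Pycard, had 3 of the 10 macrophage markers lower than WT and none higher, where 17.4% of all genes were lower. After scaling the marker counts were the same, where 25.2% of all genes were lower. These marker calls were not made again without Smad4KO replicate 2 and WT replicate 2. In replicates 1 and 3 the marker sums were 820 and 813 TPM in Smad4KO and 793 and 749 TPM in WT. EgfrKO and Klf5KO had none of the 10 markers called in either direction. No macrophage marker was at 0 in all libraries of a group. Smad4KO replicate 2 had 29.9 TPM of C1qa, a complement gene of tissue macrophages, against 149 and 162 TPM in the other two Smad4KO libraries. In that library, with a macrophage sum of 186 TPM, Casp1 had 38.8, Casp4 24.6, Gsdmd 148 and Zbp1 64.2 TPM, each above every WT library. Its Nlrp3 value of 0.548 TPM lay between the 0.509 and 0.936 TPM of the other two Smad4KO libraries, and its Pycard value of 0.621 TPM was the lowest of the 3. With the mean of the macrophage list as a covariate, Nlrp3 in EgfrKO against Smad4KO was no longer called (log2 fold change 0.52, 0.74 without it, adjusted p = 0.142). Pycard in Klf5KO against Smad4KO was not called either (0.28, adjusted p = 0.3). Casp4 lost its calls in both of these contrasts too (-0.20 and -0.24, adjusted p = 0.291 and 0.127). Over all genes, calls in EgfrKO against Smad4KO fell from 2554 to 1674 higher and from 1977 to 1160 lower. Each call of the 10 genes against WT was kept. The part of macrophage RNA in the Nlrp3 and Pycard values was not tested further.

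**Figure D3:**
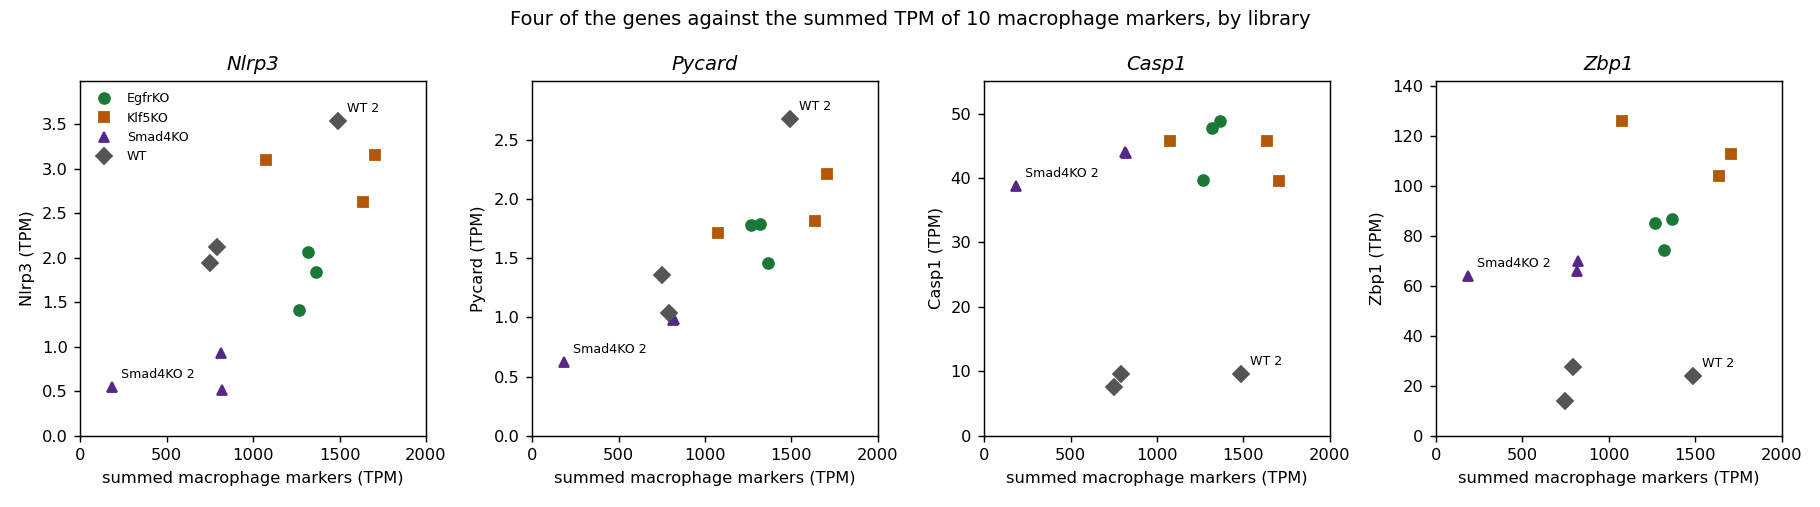
TPM of Nlrp3, Pycard, Casp1 and Zbp1 in each library (vertical axes) against the summed TPM of 10 macrophage markers in the same library (horizontal axes); colours and shapes give the group. WT replicate 2 (marked WT 2) was the highest library of all for Nlrp3 and Pycard, and Smad4KO replicate 2 (marked Smad4KO 2) kept 38.8 TPM of Casp1 and 64.2 TPM of Zbp1 at a marker sum of 186 TPM.

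Il18, the gene of the cytokine matured by caspase-1, was called in 1 of the 3 knockout labels. It lies on chromosome 9 (50554700 to 50581841, plus strand) and overlaps Bco2 and Tex12 on the opposite strand, which reached at most 3.21 and 0.682 TPM; the sources used here do not say whether counting used strand, so reads of the shared stretches cannot be told apart. Il18 had 7.24, 7.96 and 7.03 TPM in EgfrKO, 7.16, 6.08 and 5.14 TPM in Klf5KO and 7.53, 6.20 and 5.53 TPM in Smad4KO, against 3.88, 6.06 and 4.20 TPM in WT. Only EgfrKO lay wholly above WT, since WT replicate 2 reached into the other 2 groups. The log2 fold change in EgfrKO was 0.57 (SE 0.16, adjusted p = 0.0117), and 0.45 after scaling (adjusted p = 0.0274). It was 0.33 in Klf5KO (adjusted p = 0.0822) and 0.39 in Smad4KO (adjusted p = 0.0582), and 0.03 and 0.30 after scaling. Without WT replicate 2 both were called as deposited, at 0.49 in Klf5KO (adjusted p = 0.0123) and 0.55 in Smad4KO (adjusted p = 0.0104); leaving out Klf5KO replicate 3 or Smad4KO replicate 3 also gave a call (0.43, adjusted p = 0.0442, and 0.47, adjusted p = 0.0441).

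Casp8 (chromosome 1, 58795233 to 58847503, plus strand) was the steadiest of the 10 genes. It had 36.9, 37.8 and 34.2 TPM in EgfrKO, 36.9, 38.0 and 34.6 TPM in Klf5KO and 36.8, 34.4 and 33.1 TPM in Smad4KO, against 29.5, 31.3 and 33.3 TPM in WT. EgfrKO and Klf5KO lay just above WT and Smad4KO overlapped it. The log2 fold changes were 0.21 in EgfrKO (SE 0.07, adjusted p = 0.0257), 0.21 in Klf5KO (SE 0.07, adjusted p = 0.0135) and 0.14 in Smad4KO (SE 0.07, adjusted p = 0.0901). After scaling they were 0.06, -0.13 and 0.04 and none was called, so the sign in Klf5KO turned. The EgfrKO call was also lost without WT replicate 2 (0.21, adjusted p = 0.0599), without EgfrKO replicate 1 (0.19, adjusted p = 0.0752), EgfrKO replicate 2 (0.18, adjusted p = 0.096) or WT replicate 1 (0.16, adjusted p = 0.0944), and the Klf5KO call without WT replicate 1 (0.17, adjusted p = 0.0576).

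Zbp1, the sensor upstream of RIPK3, was among the 3 largest increases of the 10 genes in every knockout label and had its highest level in Klf5KO. It lies on chromosome 2 (173206612 to 173218959, minus strand). Zbp1 had 86.9, 74.5 and 85.2 TPM in EgfrKO, 126, 104 and 113 TPM in Klf5KO and 69.9, 64.2 and 66.0 TPM in Smad4KO, against 27.5, 23.9 and 13.8 TPM in WT. None of the 4 groups overlapped another, and WT replicate 3 was the lowest library. The share of all genes with no overlap among the 4 groups was not counted. The means were 3.79, 5.25 and 3.07 times that of WT, with log2 fold changes of 1.92, 2.39 and 1.63 in EgfrKO, Klf5KO and Smad4KO (SE 0.19 each, adjusted p = 1.44e-05, 1.42e-06 and 2.47e-05) and 1.78, 2.04 and 1.52 after scaling. Zbp1 was 0.76 higher in Klf5KO than in Smad4KO (adjusted p = 0.00378; 0.52 after scaling), while EgfrKO was not called against Klf5KO (-0.47, adjusted p = 0.0528) or Smad4KO (0.29, adjusted p = 0.254). A fit of only the 2 groups compared called both (adjusted p = 0.00376 and 0.0173), and the filter at 5 TPM called the difference from Klf5KO (adjusted p = 0.0464).

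Ripk3, the kinase gene of necroptosis, separated the 4 groups more than any other of the 10 genes (chromosome 14, 55784995 to 55788857, minus strand). It had 7.50, 7.50 and 7.71 TPM in EgfrKO, 1.84, 2.35 and 1.79 TPM in Klf5KO and 18.8, 19.3 and 24.1 TPM in Smad4KO, against 12.1, 12.4 and 9.74 TPM in WT. The groups stood in the order Smad4KO, WT, EgfrKO and Klf5KO without overlap, and each neighbouring pair was called. Gsdmd, Mlkl and Zbp1 also had no overlap between groups, but not every neighbouring pair was called for them. How common such separation of all 4 groups is among all genes was not counted. Against WT the log2 fold change was -0.53 in EgfrKO (SE 0.12, adjusted p = 0.00428), -2.05 in Klf5KO (SE 0.12, adjusted p = 1.78e-07) and 0.80 in Smad4KO (SE 0.12, adjusted p = 0.000172). After scaling these were -0.67, -2.32 and 0.70, each still called. The Klf5KO mean was 0.174 times that of WT and 0.0962 times that of Smad4KO, the widest gap between groups for any of the 10 genes (log2 fold change -2.86, adjusted p = 4.73e-09). Ripk3 was also higher in EgfrKO than in Klf5KO by 1.52 (adjusted p = 1.8e-06) and lower in EgfrKO than in Smad4KO, with a log2 fold change of -1.33 (adjusted p = 9.03e-06). Each of these Ripk3 calls was kept without Smad4KO replicate 2 and WT replicate 2 and with the macrophage covariate. The promoter of Ripk3 is shown because its transcript was lowest in Klf5KO, and capitals mark its match to the Klf pattern, on the opposite strand at 16 to 9 bases before the start.
Ripk3, chr14:55788858-55789107, minus strand: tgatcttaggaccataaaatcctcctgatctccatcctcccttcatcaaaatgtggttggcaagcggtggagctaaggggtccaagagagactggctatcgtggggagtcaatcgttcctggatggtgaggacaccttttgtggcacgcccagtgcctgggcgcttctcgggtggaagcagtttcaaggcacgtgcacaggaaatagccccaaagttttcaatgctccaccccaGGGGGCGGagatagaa
Pycard and Mlkl also held the Klf pattern, which occurs in 45.9% of mouse starts and in 48.5% of genes, so its presence does not set these genes apart.

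Mlkl, the gene of the membrane-disrupting substrate of RIPK3, was higher in all 3 knockout labels (chromosome 8, 111311255 to 111338479, minus strand). It had 41.8, 36.5 and 39.3 TPM in EgfrKO, 51.7, 45.7 and 43.6 TPM in Klf5KO and 31.5, 35.6 and 34.5 TPM in Smad4KO, against 22.5, 22.3 and 20.2 TPM in WT. Every knockout library was above every WT library, with Klf5KO at the top. The log2 fold changes were 0.83, 1.08 and 0.62 in EgfrKO, Klf5KO and Smad4KO (SE 0.08 each, adjusted p = 1.27e-05, 9.12e-07 and 5.52e-05), and 0.68, 0.74 and 0.51 after scaling. Mlkl was lower in EgfrKO than in Klf5KO as deposited (-0.25, adjusted p = 0.017) but not after scaling (-0.05, adjusted p = 0.535) or without EgfrKO replicate 2 or Klf5KO replicate 1 (adjusted p = 0.0743 and 0.0722), and higher in Klf5KO than in Smad4KO (0.46, adjusted p = 0.000323; 0.22 after scaling).

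The ratio of Ripk3 to Mlkl within a library does not depend on the scaling of the library. It was 0.179, 0.206 and 0.196 in EgfrKO, 0.0355, 0.0514 and 0.0410 in Klf5KO and 0.597, 0.541 and 0.698 in Smad4KO, against 0.537, 0.558 and 0.481 in WT. EgfrKO and Klf5KO lay apart from each other and under the other groups, and Smad4KO and WT overlapped. Relative to WT, the kinase gene was lower and the gene of its substrate higher in EgfrKO and Klf5KO, and both were higher in Smad4KO. The ratio averaged 0.194 ± 0.0133 in EgfrKO, 0.0427 ± 0.00808 in Klf5KO, 0.612 ± 0.0795 in Smad4KO and 0.525 ± 0.0394 in WT (SD, n = 3 each).

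**Figure D4:**
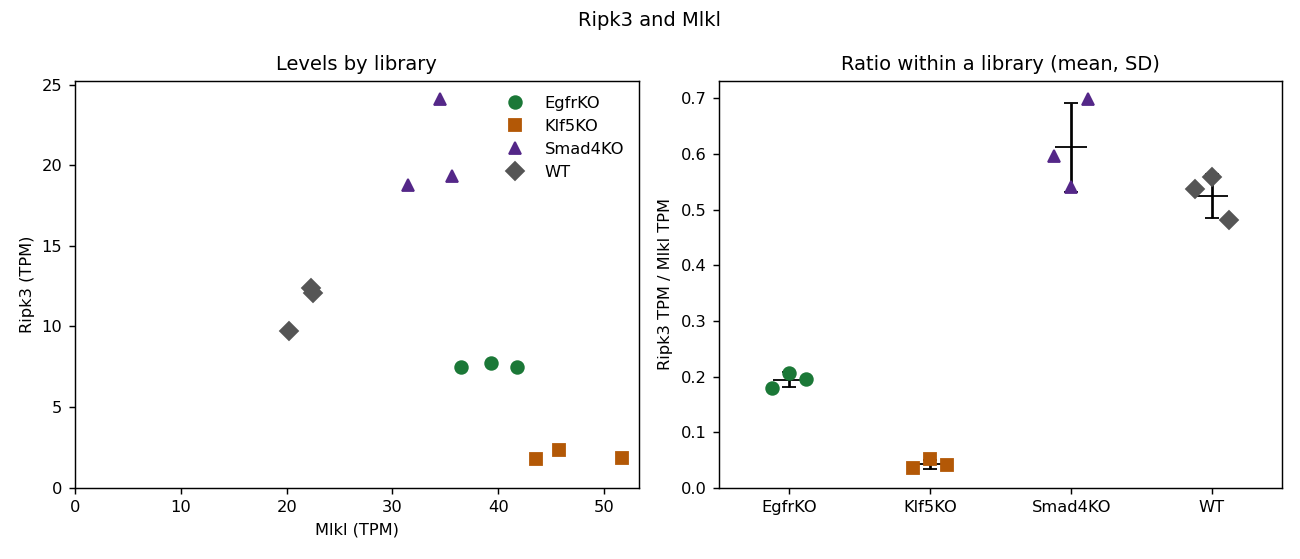
Left, TPM of Ripk3 (vertical) against TPM of Mlkl (horizontal) in each library; right, their ratio within a library by group, with the mean and SD of 3 libraries. The ratio was 0.0427 in Klf5KO and 0.194 in EgfrKO on average, under 0.612 in Smad4KO and 0.525 in WT.

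Between knockout labels, 2 of the 10 genes were higher and 2 lower in EgfrKO than in Klf5KO, where 14.7% and 40.5% of all genes were. After scaling 6 were higher and none lower (26.4% and 25.6% of all genes), and Casp1 (0.25, adjusted p = 0.0466), Casp4 (0.23, adjusted p = 0.0292), Casp8 (0.19, adjusted p = 0.0211) and Il18 (0.42, adjusted p = 0.0291) joined Gsdmd and Ripk3. In EgfrKO against Smad4KO, 1 gene was higher and 2 were lower, where 18.7% and 14.5% of all genes were. After scaling 1 was higher and 3 were lower (17.1% and 19.0% of all genes), and the added gene was Gsdmd (-0.22, adjusted p = 0.0352). In Klf5KO against Smad4KO, 4 were higher and 3 lower, where 45.5% and 18.3% of all genes were. The 4 were Pycard (0.65, adjusted p = 0.0126; adjusted p = 0.0515 after scaling), Nlrp3, Mlkl and Zbp1, and the 3 were Casp4, Gsdmd and Ripk3; after scaling 3 were higher and 4 lower (29.7% and 30.8% of all genes). EgfrKO and Smad4KO differed in the fewest of the 10 genes before and after scaling, and they also differed in the fewest genes of all, with 33.2% called in either direction, against 55.2% between EgfrKO and Klf5KO and 63.8% between Klf5KO and Smad4KO.

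Other genes of the same pathways were described by list, and the counts of each list stand beside 31.3%, 55.2% and 32.2% of all genes higher and 12%, 11.1% and 17.4% lower in EgfrKO, Klf5KO and Smad4KO against WT, and medians over all genes of 0.14, 0.31 and 0.10. After scaling 18.2%, 24.9% and 24.8% of all genes were higher and 22.1%, 27.3% and 25.2% lower. Of 11 inflammasome sensor genes 7 were tested, and 4, 5 and 6 were higher and 0, 1 and 0 lower in EgfrKO, Klf5KO and Smad4KO, with medians of 0.88, 0.51 and 1.0 on the log2 scale, each above that over all genes; after scaling 4, 4 and 5 were higher and 0, 1 and 0 lower. Naip2 and Naip5, receptors for bacterial secretion-system and flagellin proteins in mice, had their highest levels in Smad4KO: Naip5 averaged 3.45, 1.38 and 6.41 TPM in EgfrKO, Klf5KO and Smad4KO and 0.669 TPM in WT, and Naip2 averaged 8.35, 6.89 and 14.8 TPM and 3.45 TPM in WT. The Naip genes are close copies of each other, so the split of reads between them is uncertain. Naip2, Naip5 and Naip6 were all among the sensors called higher in each label, so the counts and medians of this list do not rest on separate genes. Naip6, like Naip5, was low in WT, at 0.697 TPM. Nlrc4, the partner of the Naip proteins, was lower in Klf5KO (2.75 TPM, against 4.45 TPM in WT; log2 fold change -0.53, adjusted p = 0.00831) and higher in Smad4KO (6.84 TPM; 0.54, adjusted p = 0.0115). Aim2, the sensor of cytosolic DNA, was highest in Klf5KO, with 22.1, 25.1 and 23.5 TPM, against 6.56, 7.15 and 7.38 TPM in WT (1.61, adjusted p = 1.25e-07), and also rose in EgfrKO (13.8 TPM; 0.88, adjusted p = 1.66e-05). In Smad4KO Aim2 averaged 8.69 TPM, a change of 0.27 (adjusted p = 0.0242) that was not called after scaling (0.17), and it was higher in Klf5KO than in Smad4KO by 1.35 (adjusted p = 1.48e-07).

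Among 6 inflammasome cofactors, 3, 4 and 4 were higher and 0, 0 and 1 lower in EgfrKO, Klf5KO and Smad4KO, and 3, 2 and 3 were higher and 2, 0 and 1 lower after scaling. The medians of the cofactors were 0.22, 0.28 and 0.38, and in Klf5KO both the median and the share called higher were close to those over all genes (0.31 and 55.2%). Serpinb1a, an inhibitor of neutrophil proteases that also restrains inflammatory caspases, averaged 105, 109 and 114 TPM in these labels and 36.6 TPM in WT, with log2 fold changes of 1.51, 1.56 and 1.62. Txnip, a thioredoxin-binding protein linked to NLRP3, averaged 167, 212 and 228 TPM and 85.6 TPM in WT. P2rx7, the ATP-gated channel upstream of NLRP3, was lower in Smad4KO (1.57 TPM, against 3.39 TPM in WT; log2 fold change -0.76, adjusted p = 0.00665), the label with the lowest Nlrp3. Of 10 genes of the interleukin-1 and interleukin-18 system, 2, 4 and 2 were higher and 2, 3 and 3 lower, and 1, 2 and 2 were higher and 4, 4 and 3 lower after scaling. The medians of this list, at -0.03, 0.17 and -0.05, and its shares called higher were under those over all genes (31.3%, 55.2% and 32.2% higher). Il18bp, which encodes the soluble inhibitor of interleukin-18, had 18.8, 18.3 and 17.6 TPM in EgfrKO, 27.1, 22.3 and 22.6 TPM in Klf5KO and 18.5, 15.5 and 16.5 TPM in Smad4KO, against 5.70, 6.60 and 3.43 TPM in WT. All 9 knockout libraries exceeded WT, with log2 fold changes of 1.66, 2.03 and 1.55, where the values of Il18 itself were 0.57, 0.33 and 0.39, called in EgfrKO alone. Il18r1, a chain of the interleukin-18 receptor, rose in Smad4KO (17.9 TPM, against 4.87 TPM in WT; 1.69, adjusted p = 7.92e-06) and was lower in EgfrKO and in Klf5KO than in Smad4KO (-1.29, adjusted p = 0.000153, and -2.02, adjusted p = 1.04e-06). Il1a averaged 2.80, 1.83 and 2.63 TPM in EgfrKO, Klf5KO and Smad4KO and 6.58 TPM in WT, and fell in all 3 (-0.98, -1.40 and -1.07). Il33, another cytokine of the family, averaged 53.2, 36.7 and 62.5 TPM and 75.0 TPM in WT, and was called lower in EgfrKO and Klf5KO. Il1rap, the shared receptor chain, was lower in Smad4KO (0.409 TPM, against 1.70 TPM in WT) and higher in Klf5KO (2.61 TPM; 0.43, adjusted p = 0.0302), the second call being lost after scaling (0.19). Il1r1, the signalling interleukin-1 receptor, rose in Klf5KO (20.8 TPM, against 12.1 TPM in WT). Il18rap, the accessory chain of the interleukin-18 receptor, was called higher in EgfrKO and Klf5KO as deposited (15.8 and 17.1 TPM, against 12.3 TPM in WT; 0.34 and 0.44) but in neither after scaling (0.20 and 0.11).

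Of a list of 9 genes, made of 8 other gasdermins and the membrane rupture gene Ninj1, only Gsdme and Ninj1 were tested. Gsdme, a gasdermin that forms pores when cleaved, averaged 10.6, 18.9 and 7.82 TPM in EgfrKO, Klf5KO and Smad4KO and 9.13 TPM in WT, and was higher in Klf5KO than in WT (0.98, adjusted p = 1.82e-05; 0.65 after scaling) and in Smad4KO (1.18, adjusted p = 2.98e-06). Ninj1 was higher in Smad4KO as deposited (129 TPM, against 104 TPM in WT; 0.30, adjusted p = 0.027; 0.19 after scaling, not called). Of 18 regulators of necroptosis, 8, 14 and 11 were higher and 2, 1 and 2 lower in EgfrKO, Klf5KO and Smad4KO, and after scaling 4, 9 and 9 were higher and 4, 3 and 3 lower. The medians of these regulators were 0.22, 0.53 and 0.32 as deposited, beside 0.14, 0.31 and 0.10 over all genes, of which 31.3%, 55.2% and 32.2% were higher. Tlr3, a sensor of double-stranded RNA that can reach RIPK3 through the adaptor encoded by Ticam1, averaged 9.92, 12.4 and 14.8 TPM and 4.09 TPM in WT, with log2 fold changes of 1.10, 1.39 and 1.64. Tnfaip3, which encodes the ubiquitin-editing protein A20, was lower in all 3 labels, at 24.6, 20.2 and 25.4 TPM in EgfrKO, Klf5KO and Smad4KO and 52.4 TPM in WT (-1.0, -1.28 and -0.96). The other regulators called lower were Otulin, a deubiquitinase of linear ubiquitin chains, in EgfrKO (29.7 TPM, against 34.7 TPM in WT; -0.21, adjusted p = 0.0443) and Map3k7, the gene of the kinase TAK1, in Smad4KO (16.6 TPM, against 19.7 TPM in WT; -0.23, adjusted p = 0.0278). Map3k7 was higher in Klf5KO (29.0 TPM; 0.53, adjusted p = 0.000109), and Ticam1 was higher in Klf5KO and Smad4KO (14 and 14.5 TPM, against 7.98 TPM in WT; 0.75 and 0.79). Adar, whose product edits double-stranded RNA and limits ZBP1 activation, averaged 37.0, 33.0 and 34.1 TPM and 21.5 TPM in WT. Birc2, an E3 ligase for RIPK1, averaged 13, 15.6 and 14.7 TPM and 8.37 TPM in WT, and was higher in all 3 labels. Ripk1, the kinase partner of RIPK3, averaged 33.8 TPM in Klf5KO and 22.5 TPM in Smad4KO, with 20 TPM in WT, and rose in Klf5KO against WT (0.73, adjusted p = 1.18e-05; 0.39 after scaling), where Ripk3 was lowest. Ripk1 was chosen after its values were seen, and the other genes of the lists by the naming rule.

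Of 17 apoptosis genes, 6, 11 and 6 were higher and 2, 3 and 3 lower in EgfrKO, Klf5KO and Smad4KO, and after scaling 3, 5 and 4 were higher and 4, 7 and 5 lower. The shares called higher were near the 31.3%, 55.2% and 32.2% of all genes, and the medians of 0.11, 0.33 and 0.07 near the 0.14, 0.31 and 0.10 over all genes. Fas, a death receptor, averaged 13.5, 15.2 and 21.4 TPM and 6.64 TPM in WT. Bak1, which encodes a BCL-2 family protein that permeabilizes the outer mitochondrial membrane, averaged 85.3, 104 and 80.7 TPM and 55.7 TPM in WT, with log2 fold changes of 0.61, 0.88 and 0.53, each called before and after scaling. Pmaip1, which encodes the BCL-2 family member NOXA, was lower in Klf5KO and Smad4KO (35.8 and 42.9 TPM, against 65.1 TPM in WT). All 6 interferon transcription factors tested were higher in EgfrKO, and 5 of 6 were in Klf5KO and in Smad4KO, with medians of 0.94, 0.93 and 0.89, where 31.3%, 55.2% and 32.2% of all genes were higher; after scaling 6, 4 and 5 were higher, where 18.2%, 24.9% and 24.8% of all genes were. Irf1 averaged 164, 162 and 151 TPM in EgfrKO, Klf5KO and Smad4KO and 71.6 TPM in WT, with log2 fold changes of 1.19, 1.17 and 1.07. Irf8 was called in EgfrKO and Klf5KO (13 and 36.8 TPM, against 7.60 TPM in WT), and averaged 9.29 TPM in Smad4KO. Irf7 averaged 46.6 and 44.9 TPM in EgfrKO and Smad4KO, each called, and 23.3 TPM in Klf5KO (0.19, adjusted p = 0.299), with 20.3 TPM in WT.

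**Figure D5:**
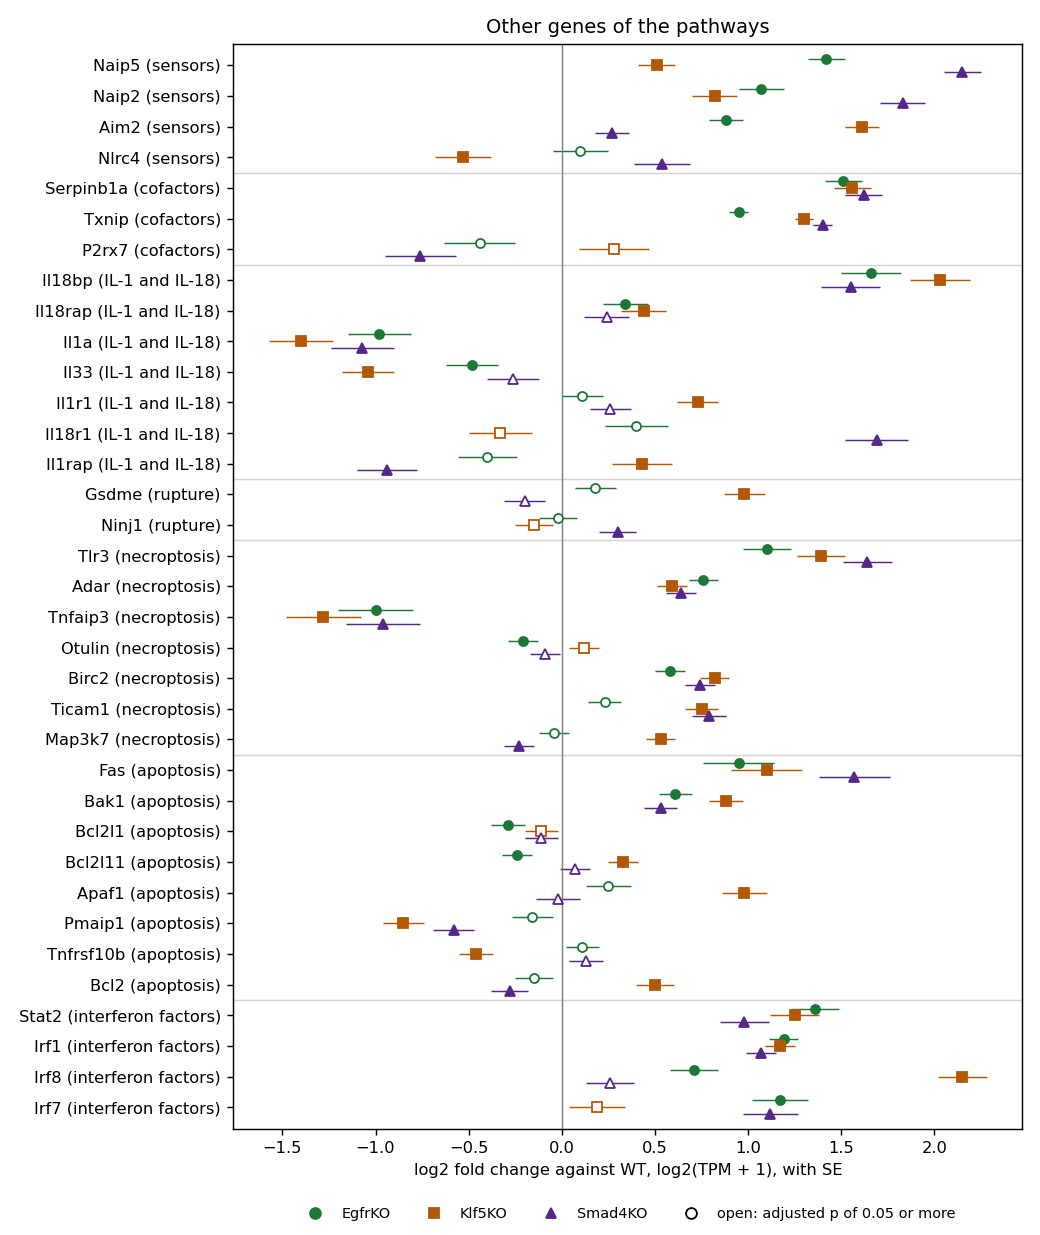
Log2 fold change against WT on the log2(TPM + 1) scale with its SE for the genes of each pathway list that the naming rule took, for EgfrKO (circles), Klf5KO (squares) and Smad4KO (triangles); open symbols have an adjusted p of 0.05 or more. Serpinb1a, Il18bp, Tlr3, Bak1 and Irf1 were above 0 and called in all 3 labels, Il1a and Tnfaip3 were below 0 and called in all 3, and Naip5, Aim2, Il18r1 and Irf8 spread widely between labels.

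The genes whose profile over the 12 libraries was nearest to that of each of the 10 were found by the root-mean-square difference of log2(TPM + 1) around each gene's mean, over all named genes with a mean of at least 5 TPM. This is a description with no test. Nearest to Casp1 were Irgm1 and H2-K1, at differences of 0.17 and 0.19 beside a spread of 0.95 for Casp1 itself, and nearest to Zbp1 were Irgm2 and H2-Q4, at 0.13 each beside 0.93. Nearest to Casp4 were Parp9 and Spats2l (0.10 and 0.11 beside 0.64), to Gsdmd Tspan8 and Psme1 (0.08 and 0.09 beside 0.38), and to Mlkl Slc16a6 and Znfx1 (0.08 and 0.09 beside 0.41). Ripk3 had none of these neighbours: its nearest were Bcam and Erbb3 (0.19 and 0.23 beside 1.05), a surface adhesion glycoprotein and an ERBB family receptor. Bcam averaged 79.9, 21.9 and 184 TPM in EgfrKO, Klf5KO and Smad4KO and 124 TPM in WT. Its order of groups, the same as that of Ripk3, follows from its choice by nearness in these libraries and is not a separate result. Nearest to Nlrp3 were Emilin2 and Nav1 (0.16 and 0.18 beside 0.51), and to Pycard Cebpa and Abracl (0.16 and 0.18 beside 0.32). Il18 lay nearest to Dynlt1a and Sergef (0.10 and 0.13 beside 0.27), and Casp8, which varied least, to Ttc4 and Dnm2 (0.04 and 0.05 beside 0.11).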

How the data were processed

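The authors deposited 1 table of gene-level TPM with a column for each of the 12 libraries, made with Salmon and the mm10 build per the submitters' processing notes; its version, the transcript annotation and the handling of strand were not given in the sources used here. Per the labels' protocols, RNA was extracted with a kit and the later steps were done by a company. TPM keep no read depth, so the depth per library is unknown, and no counting intervals are given; between 12592 and 13141 genes reached 1 TPM in a library.

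From these values, log2(TPM + 1) of the 13662 genes with at least 1 TPM in at least 3 libraries was fitted with limma 3.58.1 in R 4.3.3, as a mean for each of the 4 genotype labels over all 12 libraries, with eBayes and a trend. The 6 contrasts were tested two-sided, with Benjamini-Hochberg adjustment over all tested genes within a contrast and a threshold of 0.05. The pseudocount of 1 makes the fold changes of low genes, given on this log2 scale, smaller than their ratios of TPM. The fit was tested on simulated data. Median-of-ratios scaling used the tested genes above 0 in every library.

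The labels do not say whether replicates came from separate animals or cultures, so the p-values rest on the spread between libraries, and that spread may be technical. The 10 genes and the gene lists were chosen with earlier results of these data known, and no test was made over a list. Some genes of the pathway lists are not reported here. Named from each pathway list were up to 2 genes per direction and contrast against WT, those with the largest change past the threshold, and for each of the 10 genes the 2 named genes with the most similar profile. Coordinates and promoter sequences are from RefSeq on GRCm38.p6, to which 23852 of the 24493 symbols matched. Alternatives tried were a pseudocount of 0.1, a filter at 5 TPM or none, scaling, quantile normalization, no trend, a fit of the compared groups alone, the replicate number as a block, and leaving out each library; leaving out WT replicate 2 and Smad4KO replicate 2 together and a macrophage covariate were chosen after seeing the data.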

Additional observations from a re-analysis of the deposited data

How the results depend on the processing

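The changes of Casp1, Casp4, Zbp1, Mlkl and Ripk3 against WT kept their direction and their call under every alternative tried, as did each Ripk3 contrast between knockout labels. Of the fold changes of the 10 genes under all alternatives, 856 kept direction and side of the threshold, 31 lost a call, 27 gained one and 34 changed sign. Scaling moved the calls over all genes most. Under median-of-ratios scaling and quantile normalization the genes higher and lower were 2485 and 3023, and 2510 and 2766, in EgfrKO against WT (4277 and 1643 as deposited), and 3397 and 3732, and 3685 and 3151, in Klf5KO against WT (7536 and 1518). In EgfrKO against Klf5KO they were 3604 higher and 3491 lower after median-of-ratios scaling and 3277 higher after quantile normalization (2007 and 5528 as deposited), and in Klf5KO against Smad4KO 4056 and 4211 after median-of-ratios scaling (6210 and 2506). With the macrophage covariate 1674 were higher and 1160 lower in EgfrKO against Smad4KO (2554 and 1977). The cause of these shifts was not tested.

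Among the 10 genes, EgfrKO against Klf5KO gave 6 higher and 0 lower with median-of-ratios scaling, and quantile normalization gave 5 and 0; at an unadjusted p under 0.05 limma gave 0 and 1 lower under these. EgfrKO against Smad4KO gave 3 higher in a fit of these groups alone, 2 with a pseudocount of 0.1, 0 with a filter at 5 TPM, which leaves Nlrp3 and Pycard out, and 0 with the macrophage covariate (1 and 2 at an unadjusted p under 0.05); it gave 1 lower without a filter, with that covariate and with WT replicate 2 and Smad4KO replicate 2 both left out. EgfrKO against WT gave 2 lower after quantile normalization. Klf5KO against Smad4KO gave 2 higher with a filter at 5 TPM. Smad4KO against WT gave 2 lower after median-of-ratios scaling, quantile normalization, without a trend or with a pseudocount of 0.1, and 0 with a filter at 5 TPM (0 at an unadjusted p under 0.05). Leaving out each library in turn gave 0 to 2 lower in EgfrKO against Klf5KO, with 0 without Klf5KO replicate 1 (2 at an unadjusted p under 0.05), 1 to 2 lower in EgfrKO against Smad4KO and 1 to 2 lower in Smad4KO against WT.

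Signs turned as follows; of these values Casp8 in Klf5KO against WT had been called as deposited (0.21), and Casp8 became called in EgfrKO against Klf5KO after median-of-ratios scaling and quantile normalization (adjusted p = 0.0211 and 0.0209) and in Klf5KO against Smad4KO after median-of-ratios scaling (adjusted p = 0.0333). In EgfrKO against Klf5KO, Casp8 was 0.19 after either scaling and Pycard 0.0108 after median-of-ratios scaling. In EgfrKO against WT, Pycard was -0.0570 after median-of-ratios scaling, -0.11 after quantile normalization and -0.13 with the macrophage covariate. In Klf5KO against WT, these 3 alternatives gave -0.0678, -0.0743 and -0.0050 for Pycard, and the scalings gave -0.0653 and -0.0947 for Nlrp3 and -0.13 and -0.10 for Casp8, while quantile normalization gave -0.0073 for Il18. In Klf5KO against Smad4KO, Casp1 was -0.19 and -0.16 after the scalings, -0.0699 with the covariate and -0.0120 with both libraries left out, and Casp8 was -0.17 and -0.14 after the scalings. In EgfrKO against Smad4KO, Casp1 was -0.0162 with the covariate. Leaving out each library gave -0.0147 to 0.15 for Casp1, -0.0369 to 0.0958 for Casp4 and -0.0441 to 0.0332 for Casp8 in EgfrKO against Klf5KO, -0.14 to 0.28 for Pycard in EgfrKO against WT, -0.0222 to 0.40 for Pycard in Klf5KO against WT, and -0.0120 to 0.11 for Casp1 and -0.16 to 0.0466 for Il18 in Klf5KO against Smad4KO.

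The replicate numbers did not pair the samples: 1 of 18 pairs with the same number correlated over 0.1 in their deviations from the group means (range -0.149 to 0.116), and 3 of 12 libraries correlated best with one of their own number. With the replicate block, 4211 genes were higher and 1586 lower in EgfrKO against WT, 7493 and 1515 in Klf5KO against WT and 4338 and 2289 in Smad4KO against WT. The block added calls for Il18 in Smad4KO against WT (0.39, adjusted p = 0.0486) and Zbp1 in EgfrKO against Klf5KO (-0.47, adjusted p = 0.0424). Since TPM keep no depth, low genes such as Nlrp3 and Pycard carry a counting error that cannot be given.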
